A study of Rattus norvegicus with 8 samples.

Results

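The transcripts of 5 genes of the lysosome and its protease control were followed in the spinal cord below an injury: the cathepsins Ctsb, Ctsl and Ctsd, prosaposin (Psap) and cystatin C (Cst3). They were chosen by Ensembl identifier, ENSRNOG00000010331, ENSRNOG00000018566, ENSRNOG00000020206, ENSRNOG00000000571 and ENSRNOG00000005195 in that order, and are 5 of the 32883 genes in the deposited table. The symbols were supplied with the identifiers when the genes were chosen, and no table at hand pairs the 2 to check them. All 5 passed the filter on low counts that left 4086 genes for testing. The libraries were made from lower cords of Sprague Dawley rats (an outbred stock) at day 23 after injury. By the series' title and design text the cord was hemisected at T9, and the sampled cord below was intact. Animals of both groups were therefore injured, and 4 libraries came from trained and 4 from untrained ones. The sources used here do not give the kind of training, the sex and age of the rats or how many animals stand behind a library, so p-values measure the spread between these libraries, which may be technical.

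Cathepsins are proteases that digest proteins in the acidic lysosome. Cathepsins B and L cut with a catalytic cysteine and cathepsin D with a pair of aspartates, and all 3 are made as inactive precursors. Prosaposin is cut in the lysosome, in part by cathepsin D, into the saposins, small proteins that help enzymes break down sphingolipids such as those of myelin. It is also secreted. Cystatin C is a secreted inhibitor of cysteine cathepsins, which does not inhibit cathepsin D. In nervous tissue microglia are rich in cathepsins, astrocytes and microglia in cystatin C, and neurons also carry prosaposin and cathepsin D. In bulk cord, fewer cells of a type and less RNA per cell cannot be told apart.

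The promoters of Ctsd and Ctsl are shown because lysosomal genes are often controlled through the E-box CACGTG, the core of the site of the factor TFEB. Of the 5 genes, 3 had an entry in the RefSeq promoter table (build GRCr8), namely Ctsd, Ctsl and Cst3. Each sequence is the 250 bases before the annotated start, 5′ to 3′ on the gene's strand, and capitals mark CACGTG and the GC box GGGCGG on either strand.
Ctsd, chr1:206968822-206969071, minus strand: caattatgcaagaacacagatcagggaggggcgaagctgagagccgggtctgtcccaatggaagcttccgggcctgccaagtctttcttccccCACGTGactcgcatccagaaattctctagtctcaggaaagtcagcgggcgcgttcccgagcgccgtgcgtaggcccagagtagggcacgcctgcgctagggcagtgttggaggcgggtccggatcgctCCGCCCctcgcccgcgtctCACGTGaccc
Ctsl, chr17:769854-770103, plus strand: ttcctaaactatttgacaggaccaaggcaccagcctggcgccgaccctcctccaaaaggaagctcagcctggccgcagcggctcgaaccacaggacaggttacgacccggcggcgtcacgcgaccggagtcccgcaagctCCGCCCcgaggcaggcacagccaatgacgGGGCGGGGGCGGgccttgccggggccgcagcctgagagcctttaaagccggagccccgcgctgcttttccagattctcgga
Ctsd held 2 matches to CACGTG, beginning 157 and 10 bases before the start. The one nearer the start was part of the longer TCACGTGA. Ctsl and Cst3 held no match to CACGTG in this window. Among all 33469 promoters of the table, 5.59% held CACGTG in the same 250 bases, 0.43% held at least 2 matches and 0.657% held TCACGTGA. GGGCGG was matched 3 times in Ctsl, 1 time in Ctsd and 1 time in Cst3, and 30.5% of all promoters held it. These matches describe letters and not binding.

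Libraries held 192472 to 453390 counts each. A count is a UMI, a random tag put on each captured transcript end so that PCR copies are counted once. Together the 5 genes took 0.687% to 1.11% of the UMIs of a library. Counts were scaled to CPM, counts for a total set equal in all libraries, after correcting the totals by the trimmed mean of M values. The total was that over the 4086 tested genes, so CPM differ from shares of the whole library. Because 1 UMI stands for 1 captured 3′ end whatever the transcript's length, UMIs of different genes were compared without dividing by length. The tissue label could not be checked against marker genes, nor the other lysosomal genes counted, because the table names genes by identifier alone and none matched the gene table at hand.

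Cst3 was the most abundant of the 5 and among the most abundant transcripts of the cord, ranking between 9th and 15th of all genes in every library. Its level averaged 6694 ± 2105 CPM without and 7397 ± 760 CPM with training (mean ± SD of 4 libraries in each group, as for the values that follow). Psap, ranking 42nd to 78th, stood at 1925 ± 397 and 2105 ± 370 CPM. Ctsd stood at 536 ± 172 and 402 ± 82.7 CPM, Ctsb at 378 ± 59.9 and 382 ± 117 CPM, and Ctsl at 137 ± 26.8 and 121 ± 42.2 CPM. The order Cst3, Psap, then Ctsd or Ctsb, then Ctsl held in all 8 libraries. There were 2.85 to 4.51 Cst3 UMIs for each of Psap, 2.84 to 7.02 Psap UMIs for each of Ctsd, and 2.09 to 4.63 Ctsb UMIs for each of Ctsl, and the 95% exact binomial interval of each of these ratios lay above 1 in every library (counting error only). The intervals do not cover the tag limit treated below, which if present lowers Cst3 counts most and so its ratios to Psap. Ctsd and Ctsb were neighbours that could not be ordered. Ctsd had more UMIs in 7 of 8 libraries, but its ratio to Ctsb ran from 0.957 to 1.79 and the interval lay above 1 in only 3, untrained replicates 1, 3 and 4.

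**Figure D1:**
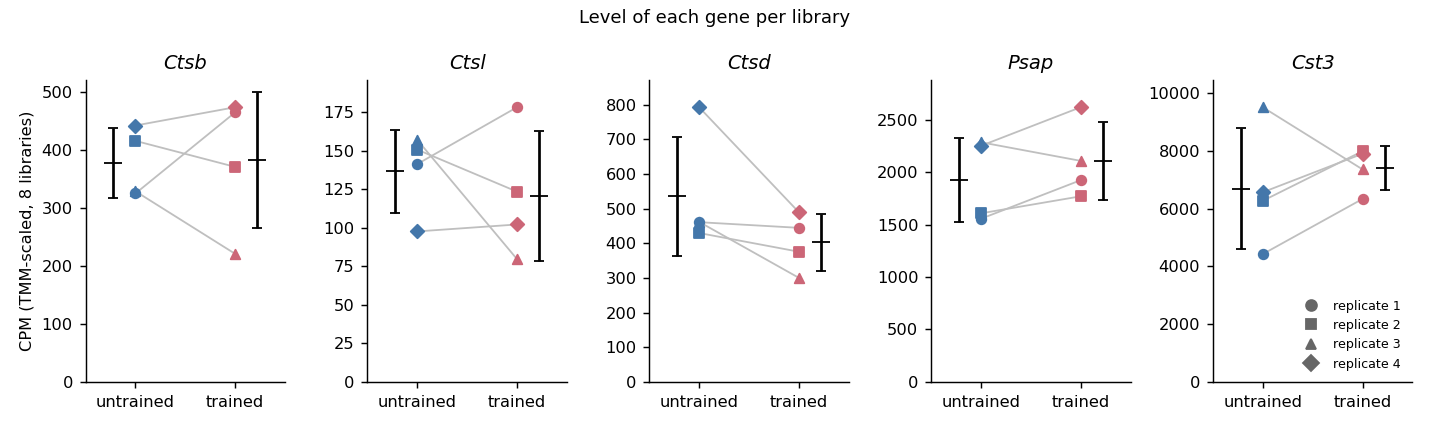
Level of each gene in CPM (vertical axis from 0) in the untrained and trained libraries. Points are libraries, grey lines join libraries with the same replicate number, and bars beside them show mean ± SD (n = 4). Untrained replicate 4 stands at 793 CPM for Ctsd, above the other untrained libraries, and the groups overlap for every gene.

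None of the 5 genes passed the test between the groups. This comparison asks whether training after the injury changes expression in the uninjured cord below it. In edgeR's quasi-likelihood test of 4 against 4 libraries, 0 of the 5 genes had an adjusted p under 0.05, beside 0 of the 4086 genes tested (0%). At an unadjusted p under 0.05 it gave 0 of the 5 and 52 of all genes (1.27%). DESeq2 and limma-voom also called 0 of the 5 and 0 genes in all. At an unadjusted p under 0.05 DESeq2 gave 63 genes of the 13048 it ran on, without the filter, and limma-voom 57 of 4086. For all 5 genes the 95% interval of the fold change lay within a 2-fold change in both directions. The groups' CPM values overlapped for all 5 genes, while over all genes 0.612% had every trained library below and 0.489% every trained library above the untrained ones. The median log2 fold change of the 5 was 0.03, beside 0.01 over all genes, and the median size of the change was 0.13, beside 0.15. Of the 5, 2 had a negative log2 fold change (Ctsd and Ctsl), against 48.2% of all genes.

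**Figure D2:**
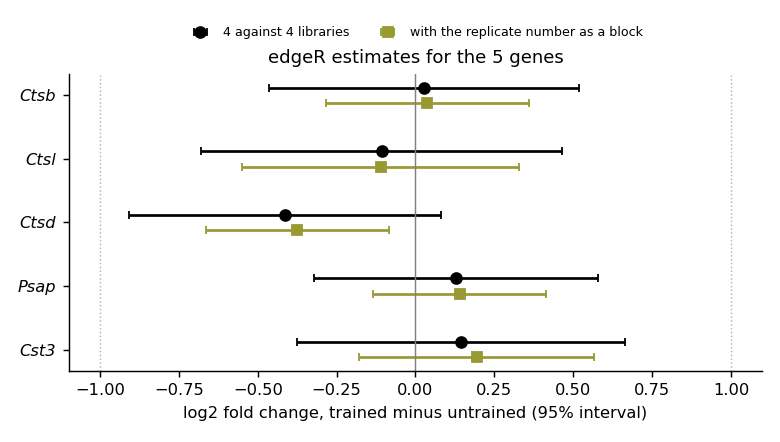
Log2 fold change of trained minus untrained libraries (horizontal axis) for each gene, with its 95% interval from edgeR, for 4 against 4 libraries and with the replicate number as a block. Dotted lines mark a 2-fold change. Every interval of the 4 against 4 comparison spans 0, and that of Ctsd with the block does not, at an adjusted p of 0.994.

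Ctsb encodes cathepsin B, a cysteine protease. It had 124, 146, 69 and 199 UMIs in untrained replicates 1 to 4 and 185, 72, 36 and 88 in trained ones. Scaled to the library, these were 325, 415, 329 and 442 CPM against 465, 370, 221 and 473 CPM. The trained libraries thus held both the highest values, in replicates 4 and 1, and the lowest, in replicate 3, and enclosed the untrained range. Its log2 fold change was 0.03 ± 0.23 (SE, 95% interval -0.46 to 0.52, edgeR adjusted p = 0.99998). By pair the trained library was higher in replicates 1 and 4, with log2 differences of 0.51 and 0.10, and lower in replicates 2 and 3.

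Ctsl encodes cathepsin L, the other cysteine protease, and was counted least. Untrained replicates 1 to 4 had 54, 53, 33 and 44 UMIs and trained ones 71, 24, 13 and 19. In CPM the untrained libraries stood at 141, 151, 157 and 97.7 and the trained ones at 178, 123, 79.7 and 102. The highest and the lowest value were both in trained libraries. The log2 fold change was -0.11 ± 0.27 (SE, 95% interval -0.68 to 0.46, edgeR adjusted p = 0.99998). The 13 UMIs of trained replicate 3 gave a share of 0.00675% of the library, with an exact 95% binomial interval of 0.0036% to 0.0115%, so that counting alone leaves this value uncertain by over 1.5 times in either direction.

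Ctsd, the aspartic protease, had the largest difference of the 5, and its direction was shared by all pairs. Untrained replicates 1 to 4 had 176, 151, 97 and 357 UMIs, and trained ones 177, 73, 49 and 91. Scaled, these were 461, 430, 462 and 793 CPM in untrained and 445, 376, 300.3 and 489 CPM in trained libraries. Untrained replicate 4 lay far above the other 7 libraries, while trained replicate 4, at 489 CPM, lay above the other 3 untrained ones, so the groups overlapped. The log2 fold change was -0.41 ± 0.23 (SE, 95% interval -0.91 to 0.08, edgeR adjusted p = 0.99998, unadjusted p = 0.0965), and 9.57% of all genes had a larger change in either direction. Without untrained replicate 4 it was -0.16 ± 0.22 (edgeR adjusted p = 0.999).

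Ctsd was lower in the trained library of all 4 pairs, with log2 differences of -0.05, -0.19, -0.61 and -0.69 in the order of the replicate numbers, whereas the other 4 genes had pairs in both directions. Over all genes 6.29% were lower in all 4 pairs. The exact 95% binomial intervals of the Ctsd share of the library overlapped within replicates 1, 2 and 3 and not within replicate 4. In replicate 1 they were 0.0393% to 0.0531% untrained and 0.0379% to 0.0511% trained, so counting error alone does not fix the direction of Ctsd there. With the replicate number as a block its log2 fold change was -0.37 ± 0.14 (SE, 95% interval -0.67 to -0.08), with an unadjusted p of 0.0144 and an edgeR adjusted p of 0.994. With the block and without replicate 4 it was -0.26 ± 0.17 (SE, unadjusted p = 0.145, edgeR adjusted p = 0.996), and DESeq2 with the block gave an unadjusted p of 0.0735 (adjusted p = 0.9998). With the block 1.86% of all genes had a lower level in trained libraries at an unadjusted p under 0.05. With the block 0 of the 5 genes passed, beside 2 of all genes (0.0489%). Within replicates 1 and 2 alone the log2 fold change was -0.11 ± 0.23 and within replicates 3 and 4 alone -0.70 ± 0.32 (SE, edgeR adjusted p of 0.999 and 0.99983).

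Library depth moved with the level of the cathepsins. The 3 shallowest libraries were trained replicates 2, 3 and 4, at 192472 to 216786 UMIs. A transcript that keeps its share of the library has a slope of 1 when log counts are set against log totals. Ctsd counts rose with a slope of 1.72, Ctsb with 1.56 and Ctsl with 1.55, over 8 libraries, while the median slope was 1.13 among the 492 genes with a mean of 100 to 500 UMIs, the class of Ctsd and Ctsb, and 1.23 among the 2065 genes of 20 to 100 UMIs, the class of Ctsl. In these classes 1.02% of the genes had a steeper slope than Ctsd, 3.86% than Ctsb and 15.2% than Ctsl. With log2 of the library total added to the model, an alternative chosen after seeing the data, the log2 fold change was -0.17 ± 0.28 for Ctsd, 0.26 ± 0.27 for Ctsb and 0.0196 ± 0.31 for Ctsl (SE, edgeR adjusted p = 0.99985 for each). With the block as well it was -0.16 ± 0.22, 0.19 ± 0.26 and -0.0084 ± 0.33 (SE, edgeR adjusted p = 0.99975 for each). Since 3 of the 4 trained libraries were the shallowest of all, depth and training cannot be fully told apart here.

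**Figure D3:**
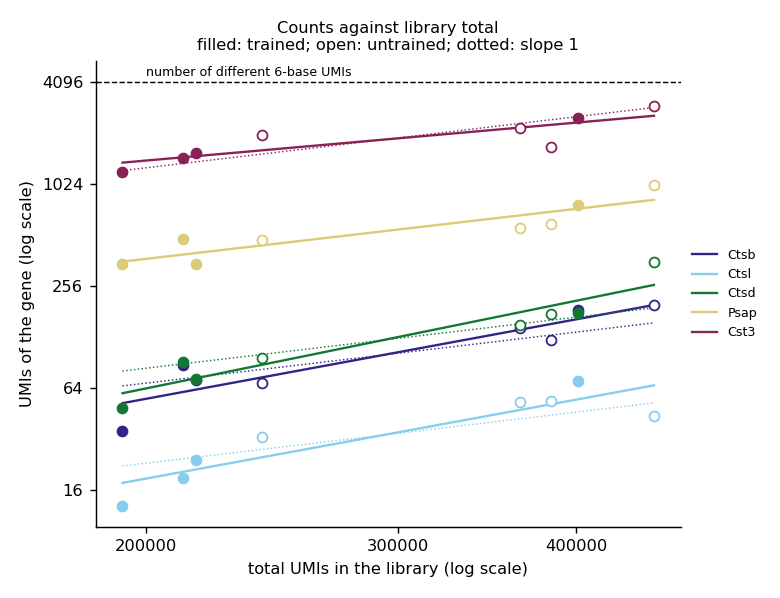
UMIs of each gene (vertical axis, log scale) against the total UMIs of the library (horizontal axis, log scale). Filled points are trained and open points untrained libraries, solid lines are fitted slopes, dotted lines a slope of 1, and the dashed line the number of different UMIs of 6 bases. Ctsd, Ctsb and Ctsl rise more steeply than the total and Cst3 less steeply.

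Psap encodes the precursor of the saposins. It had 594, 565, 480 and 1014 UMIs in untrained and 766, 344, 344 and 487 in trained replicates 1 to 4. In CPM the untrained libraries stood at 1555, 1607, 2285 and 2251 and the trained ones at 1924, 1770, 2108 and 2619.6. Numbers 3 and 4 were the higher ones in both groups, and the groups overlapped. The log2 fold change was 0.13 ± 0.21 (SE, 95% interval -0.32 to 0.58, edgeR adjusted p = 0.99998), with 3 of 4 pairs higher in trained libraries. The slope of its counts on the library total was 0.98.

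The balance of prosaposin to cathepsin D transcripts was also compared within libraries. There were 3.38, 3.74, 4.95 and 2.84 Psap UMIs per Ctsd UMI in untrained replicates 1 to 4, and 4.33, 4.71, 7.02 and 5.35 in trained ones. The ratio was higher in the trained library of all 4 pairs, as were the ratios to Ctsd of 27.1% of 4078 genes, and Ctsd itself was lower in all 4. The lowest trained value lay below the highest untrained one. Its mean was 3.73 ± 0.89 without and 5.35 ± 1.19 with training (SD, n = 4 each), a description of values chosen after they were seen and not tested.

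Cst3 encodes the inhibitor cystatin C. Untrained replicates 1 to 4 had 1690, 2204, 1998 and 2958 UMIs, and trained ones 2523, 1553, 1201 and 1469. In CPM these were 4425, 6270.4, 9513 and 6567 in untrained and 6337, 7991, 7359 and 7902 in trained libraries. The untrained values spread 2.15-fold and enclosed all 4 trained values, which spread 1.26-fold. The log2 fold change was 0.14 ± 0.25 (SE, 95% interval -0.37 to 0.66, edgeR adjusted p = 0.99998), with 3 of 4 pairs higher in trained libraries.

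Cst3 counts were high enough to approach the limit of the tag. No count in the table was above 4049, just under the number of different sequences of 6 bases, and a UMI of 6 bases was therefore assumed. Cst3 counts used 29.3% to 72.2% of these sequences, those of Psap 8.40% to 24.8%, and those of Ctsd at most 8.72%. If tags were drawn at random, the true number of Cst3 molecules was 1.18 times the count in trained replicate 3 and 1.77 times in untrained replicate 4. For Ctsb, Ctsl and Ctsd the factor was at most 1.05. On counts corrected in this way the log2 fold change of Cst3 was -0.03 ± 0.26 (SE, edgeR adjusted p = 0.999), against 0.14 on the deposited counts, and the slope of Cst3 on the library total went from 0.74 to 1.07.

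The proteases were then set against the Cst3 count of the same library. These ratios still moved with depth: the log2 ratio rose with the log2 library total at a slope of 0.97 for Ctsd, 0.81 for Ctsb, 0.80 for Ctsl and 0.23 for Psap (0.68, 0.51, 0.49 and -0.0092 on counts corrected for the tag limit), and 3 of the 4 trained libraries were the shallowest. Without training Ctsb had 6.04 ± 1.75 UMIs per 100 Cst3 UMIs, and with training 5.24 ± 1.86 (SD, n = 4 each). For Ctsl the values were 2.18 ± 0.78 and 1.68 ± 0.78, and for Psap 29.8 ± 5.76 and 28.6 ± 4.67. Ctsd, which cystatin C does not inhibit, had 8.55 ± 3.29 and 5.50 ± 1.35. By library, Ctsd stood at 10.4, 6.85, 4.85 and 12.1 per 100 Cst3 UMIs in untrained replicates 1 to 4 and at 7.02, 4.70, 4.08 and 6.19 in trained ones. Trained libraries were lower in every pair, although the groups overlapped.

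None of the 4 ratios passed the test between the groups. The smallest p that this test can give is 0.0286 before adjustment, so 1 ratio could not have passed by itself. The mean log2 difference of trained minus untrained was -0.58 for Ctsd, -0.41 for Ctsl, -0.22 for Ctsb and -0.05 for Psap (two-sided exact permutation tests over 70 assignments, p of 0.143, 0.314, 0.514 and 0.771, adjusted p over the 4 ratios of 0.571, 0.629, 0.686 and 0.771). Without untrained replicate 4 the Ctsd value was -0.39, and without trained replicate 3 the Ctsb value was 0.02. Ctsb, Ctsl and Ctsd were lower against Cst3 in all 4 pairs and Psap in 3, and for Ctsb in replicate 1 the difference was only -0.00093. The paired exact sign-flip test cannot go below 0.125, the value that these 3 reached. The ratios share the Cst3 count, and 12.2% of 4078 genes were lower against it in all 4 pairs.

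On corrected counts the ratios of the cysteine cathepsins no longer had 1 direction in all pairs. Ctsb was then lower in 2 pairs, at 4.23 ± 1.37 per 100 corrected Cst3 UMIs without and 3.996 ± 1.11 with training (SD, n = 4 each), and Ctsl was lower in 3. Ctsd was still lower in all 4, at 5.96 ± 2.12 and 4.23 ± 0.74, which 2.87% of the genes also were. The mean log2 difference of Ctsd was -0.44 (p = 0.229 and adjusted p = 0.8286 in the same exact two-sided permutation test). The 3 cathepsins summed came to 9.96 to 20.9 UMIs per 100 Cst3 UMIs in untrained libraries (median 18.1) and 8.16 to 17.2 in trained ones (median 12.2). On corrected counts these medians were 11.6 and 9.86.

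**Figure D4:**
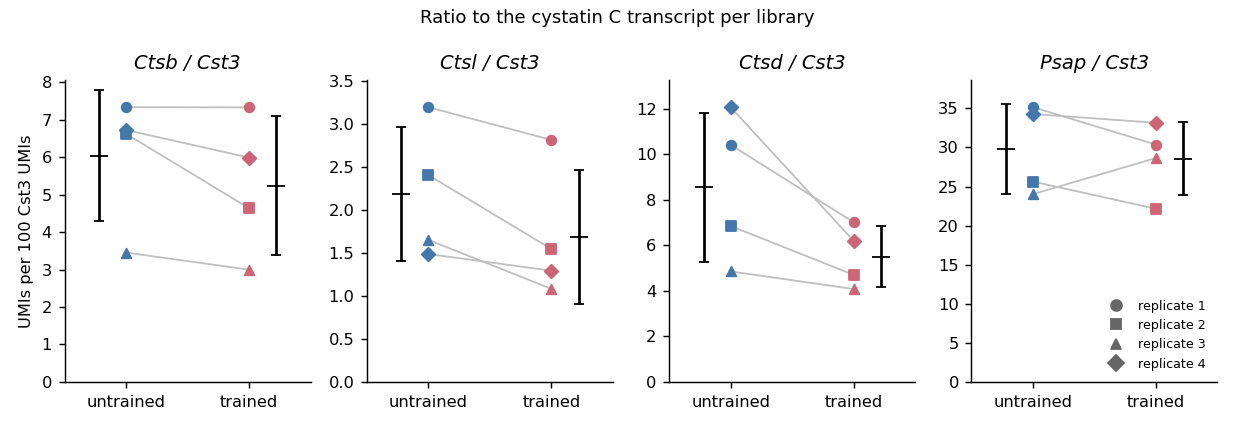
UMIs of each gene per 100 Cst3 UMIs (vertical axis from 0) in untrained and trained libraries. Points are libraries, grey lines join the same replicate number, and bars show mean ± SD (n = 4). Ctsd is lower at the trained end of all 4 lines, at 4.85 to 12.1 untrained and 4.08 to 7.02 trained, and Psap is higher at the trained end in replicate 3.

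Over the 8 libraries the profile of Ctsd lay nearest to that of Ctsb among the 5 genes, and the profile of Psap nearest to that of Cst3. Likeness was measured as the root mean square difference between log2 CPM profiles centred on their means, a description with no test. Ctsd and Ctsb lay 0.30 apart, and of the other genes with a mean of at least 100 UMIs only 2.32% of 560 lay closer to Ctsd and 6.79% closer to Ctsb. Psap and Cst3 lay 0.23 apart, with 15.4% of the genes closer to Psap and 5.71% closer to Cst3. Ctsl was nearest to Ctsb, at 0.38, but 32.6% of 561 genes lay closer to it. Ctsd and Cst3 were 0.51 apart on the deposited counts, where Cst3 used up to 72.2% of the tags, and 0.42 apart on corrected counts, where the median gene was 0.48 from Ctsd and 0.41 from Cst3. On corrected counts Ctsd was still nearest to Ctsb among the 5 (0.31) and Psap to Cst3 (0.25). Ctsd and Ctsb also had the steepest slopes on library depth of the 5 genes, at 1.72 and 1.56. Ctsl, with a slope of 1.55 and only 13 to 71 UMIs a library, lay 0.50 from Ctsd. What part depth or counting error has in these distances was not tested.

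By replicate number, Psap alone among the genes followed here had numbers 3 and 4 above numbers 1 and 2 without overlap in both groups. The numbers were looked at because earlier results of these same data had shown them to separate libraries. The share of all genes with this pattern was not counted, so it is not known whether the pattern is particular to Psap. In untrained libraries Psap stood at 1555 to 1607 CPM in numbers 1 and 2 and at 2251 to 2285 CPM in numbers 3 and 4, and in trained ones at 1770 to 1924 and 2108 to 2619.6 CPM. Cst3 stood at 4425 to 6270.4 and 6567 to 9513 CPM in untrained, and at 6337 to 7991 and 7359 to 7902 CPM in trained libraries, where the numbers overlapped. Ctsd stood at 430 to 461 and 462 to 793 CPM in untrained libraries, and at 376 to 445 and 300.3 to 489 CPM in trained ones, which overlapped. Ctsb overlapped between the numbers in both groups. Ctsl overlapped in untrained libraries, at 141 to 151 and 97.7 to 157 CPM, and in trained ones stood at 123 to 178 CPM in numbers 1 and 2 and 79.7 to 102 CPM in numbers 3 and 4. What the number stands for is not given in the labels.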

How the data were processed

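CEL-Seq2 libraries, a 3′-end method with UMIs, were sequenced on an Illumina HiSeq1500 per the labels' protocols. The submitters' processing notes name HISAT2 2.0.4, HTSeq 0.6.0 and build Rnor_6.0. Neither the UMI length nor the collapse of reads to UMIs is stated in these sources. What the authors deposited are raw UMI counts of 32883 genes, without normalisation, and each column name matched 1 sample title.

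In R 4.3.3, genes were kept by filterByExpr (minimum count 10) and tested with edgeR 4.0.16 (TMM scaling, quasi-likelihood test, Benjamini-Hochberg adjustment over 4086 genes, threshold 0.05). SE was taken as the estimate over the root of the F statistic. Log2 CPM used a prior count of 2. DESeq2 1.42.0 and limma 3.58.1 were alternatives. Simulated counts, without pairs or a tag limit, were used to check edgeR with and without the block, and DESeq2 and limma-voom without it. The other alternatives were not checked in this way. Corrected counts are -K ln(1 - count/K), with K the number of different 6-base UMIs. Intervals are exact binomial. Ratios to Cst3 were compared by exact permutation.

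The titles give numbers 1 to 4 within both groups. Deviations of same-numbered libraries from their group means correlated at 0.30 to 0.53 across genes. Every pair exceeded 0.1, so equal numbers were treated as pairs. Correlations between different numbers are not given, so a likeness shared by several numbers cannot be told apart from pairs. The pairing was thus taken from these same data, and no label states a shared animal or batch.

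The members and lists were chosen with earlier results of these data known. Named genes are all 5 members. The 9 lists of other lysosomal genes and cell type markers, and the genes of the most similar profile, were to be named by symbol and could not be, since 0 identifiers matched the RefSeq gene table (GRCr8).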

Additional observations from a re-analysis of the deposited data

Results flagged for a closer look

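Of 18 sets of 4 values examined (the CPM of the 5 genes and the 4 ratios to Cst3 in each group), 1 held a value far from the others, where chance gives about 1 in 20. Ctsd in untrained replicate 4, the deepest library, stood at 793 CPM while the other 3 untrained libraries stood at 430 to 462 CPM. The gap to the nearest made up 0.911 of their range, above the 95% limit of the Dixon test for 4 values. Its share of the library was 0.0787% (exact 95% binomial interval 0.0708% to 0.0873%, for counting error only, without the variation between libraries). Ctsd per 100 Cst3 UMIs in the same library, 12.1, was not set apart in this way. Ctsb in that library, at 442 CPM, was the highest untrained value, and Ctsl, at 97.7 CPM, the lowest.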

How the results depend on the processing

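None of the 5 genes passed under any of the 27 alternatives, other scalings, filters and tools included. None of the 4 ratios to Cst3 passed under its 13, but these settings could hardly let one pass. The paired sign-flip tests cannot go below 0.125. Those in replicates 1 and 2 alone or 3 and 4 alone have too few assignments to reach the threshold. In the others 1 ratio could not have passed by itself. Few of all genes passed in the gene tests. The most were 6 of 13048 with no filter, and 5 of 4086 with the block and without replicate 3 or without replicate 4. The replicate block changed no call among the 5. Ctsd kept a negative log2 fold change in all 27, from -0.70 (only replicates 3 and 4) to -0.11 (only replicates 1 and 2), at adjusted p of 0.869 to 0.999998. Leaving out 1 library at a time gave log2 fold changes of -0.10 to 0.20 for Ctsb, -0.41 to 0.025 for Ctsl, -0.52 to -0.16 for Ctsd, -0.0011 to 0.22 for Psap and -0.011 to 0.36 for Cst3, and log2 differences in the ratio to Cst3 of -0.47 to 0.021 for Ctsb, -0.69 to -0.20 for Ctsl, -0.82 to -0.39 for Ctsd and -0.15 to 0.063 for Psap. Changes near 0 turned direction, and the cause was not tested. That of Ctsb became -0.050 without scaling, -0.021 with no filter, -0.013 in limma-voom, -0.17 in replicates 3 and 4 alone, -0.0023 in DESeq2 with the replicate block and -0.16 with the block and without replicate 1. That of Ctsl became 0.089 in replicates 1 and 2 alone, 0.0196 with the library total as a covariate and 0.066 with the block and without replicate 3. That of Cst3 became -0.032 on corrected counts, -0.0913 in replicates 3 and 4 alone and -0.0916 with the covariate. The Psap to Cst3 value became 0.073 on corrected counts, unpaired and paired with the replicate block, and 0.10 in replicates 3 and 4 alone. The covariate and the within-set ratios were chosen after seeing the data. So were the paired ratios on corrected counts and the fits combined with the block, except the edgeR fit on corrected counts. Depth limits Ctsl most, at 13 to 71 UMIs a library.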
